A study of Mus musculus with 6 samples.

Results

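The sodium-calcium exchangers are membrane proteins that use the sodium gradient to move calcium. The 9 genes described here form 2 related families, Slc24 (Slc24a1 to Slc24a5) and Slc8 (Slc8a1, Slc8a2, Slc8a3 and Slc8b1). Their probe sets were taken as all those whose platform symbol was exactly one of these names. This gave 14 probe sets for 8 of the 9 genes, out of 45037 probe sets and 18193 named genes tested. No probe set carried the symbol Slc24a5, the exchanger known from pigment cells, so that gene is not analysed here. The families were chosen by a measured value, the genotype difference of Slc24a2 on these same arrays. That difference is therefore given as a description without a test, and the 7 other genes, which were taken by family name, are tested.

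RNA of whole testis was measured on 6 Affymetrix arrays of mice aged 5 weeks, 3 from wild-type mice and 3 from Phf13 knockout mice. Phf13 encodes a PHD finger protein that binds methylated histone H3. The labels give no strain, and they do not say how the knockout was made or whether the arrays of a genotype are separate animals. P-values therefore rest on the spread between arrays alone, and that spread may be technical. The Phf13 probe set stood at 9.55, 9.47 and 9.56 in wild type and at 6.71, 6.60 and 6.55 in knockout on the log2 scale, so the target went with the label on every array. The sources used here do not give the place of its probes relative to the deleted part. Spermatocyte, spermatid and Sertoli cell markers were all measured. The 5 elongating spermatid markers had means from 12.85 to 14.00, the 5 spermatocyte markers from 10.11 to 11.74, and the 12 Sertoli markers from 5.49 to 11.54.

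The exchangers of the Slc24 family, also called NCKX, carry potassium together with calcium out of the cell in exchange for sodium. Those of the Slc8 family, also called NCX, exchange sodium for calcium without potassium. Slc8b1, also called NCLX, is the exchanger of the mitochondrial inner membrane. The families are best known from photoreceptors (Slc24a1), neurons (Slc24a2, Slc8a2 and Slc8a3), smooth muscle and brain (Slc24a3), olfactory neurons and enamel-forming cells (Slc24a4) and heart muscle (Slc8a1). Calcium removal also matters in sperm, where calcium entry drives motility.

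Slc24a2 lies on chromosome 4, as does Phf13. RefSeq lists 2 start sites for it on build GRCm38.p6, both on the minus strand. The 250 bases before each are shown because the families were chosen by the genotype difference of Slc24a2 and the 2 starts differ in CpG content. Each CpG dinucleotide, which reads the same on both strands, is in capitals.
Slc24a2 start at chr4:87230541-87230790: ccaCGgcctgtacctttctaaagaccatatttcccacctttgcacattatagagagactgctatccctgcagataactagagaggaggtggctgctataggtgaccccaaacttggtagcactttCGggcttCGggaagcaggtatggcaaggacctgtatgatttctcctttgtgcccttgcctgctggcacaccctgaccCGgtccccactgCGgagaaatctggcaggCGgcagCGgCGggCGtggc
Slc24a2 start at chr4:87227964-87228213: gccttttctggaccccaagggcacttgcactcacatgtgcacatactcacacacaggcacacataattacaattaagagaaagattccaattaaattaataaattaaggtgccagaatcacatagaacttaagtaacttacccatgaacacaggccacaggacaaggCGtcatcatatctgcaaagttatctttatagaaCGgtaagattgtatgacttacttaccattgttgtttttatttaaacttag
The first stretch holds 9 CpGs and the second 2. Of 32851 RefSeq start sites, 40.3% hold at least 9 in the same 250 bases and 81.2% hold at least 2, with a median of 6. Among the paralogs, the upstream start of Slc24a3 held 35 CpGs, a number that 2.97% of all start sites reach, and its other start held 14. Slc24a4 and Slc8a3 held 11 each, Slc8a2 9, Slc8a1 8, and Slc24a1 and Slc24a5 5 each. The sources used here do not give which start the Slc24a2 probes report on, and binding of the PHF13 protein was not measured. Slc8b1 was not matched.

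Slc24a2 was higher in knockout on both of its probe sets. Probe set 1453885_at read 4.82, 4.61 and 4.80 on the wild-type arrays and 6.01, 5.78 and 5.79 on the knockout arrays, on the log2 scale. The groups did not overlap, and the lowest knockout array stood 0.96 above the highest wild-type array. The means were 4.74 ± 0.12 and 5.86 ± 0.13 (SD, n = 3 each), a difference of 1.12 with a standard error of 0.11, or a 2.17-fold higher level. All 3 wild-type values lay below the median probe set of their array, which ran from 5.22 to 5.28, and all 3 knockout values lay above it. Across all probe sets, 25 (0.0555%) were higher in knockout at a limma adjusted p under 0.05. Slc24a2 was chosen by its difference on these arrays, so no call is given for either of its probe sets. Because whole testis was measured, more cells of a type and more RNA per cell cannot be told apart.

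The other Slc24a2 probe set, 1429225_at, read 4.60, 4.62 and 4.70 in wild type and 5.07, 5.18 and 5.21 in knockout. Here too the groups did not overlap, with a gap of 0.37. The means were 4.64 ± 0.05 and 5.15 ± 0.07 (SD, n = 3 each), a difference of 0.51 with a standard error of 0.09, or 1.43-fold. All 6 of these values lay below the array medians and above the lower quartiles. The difference of the first probe set was 2.18 times that of the second on the log2 scale, so the size of the Slc24a2 difference depended on the probe set, while its direction did not. Both names end in _at, the suffix Affymetrix gives to probe sets designed for a single transcript or gene.

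**Figure D1:**
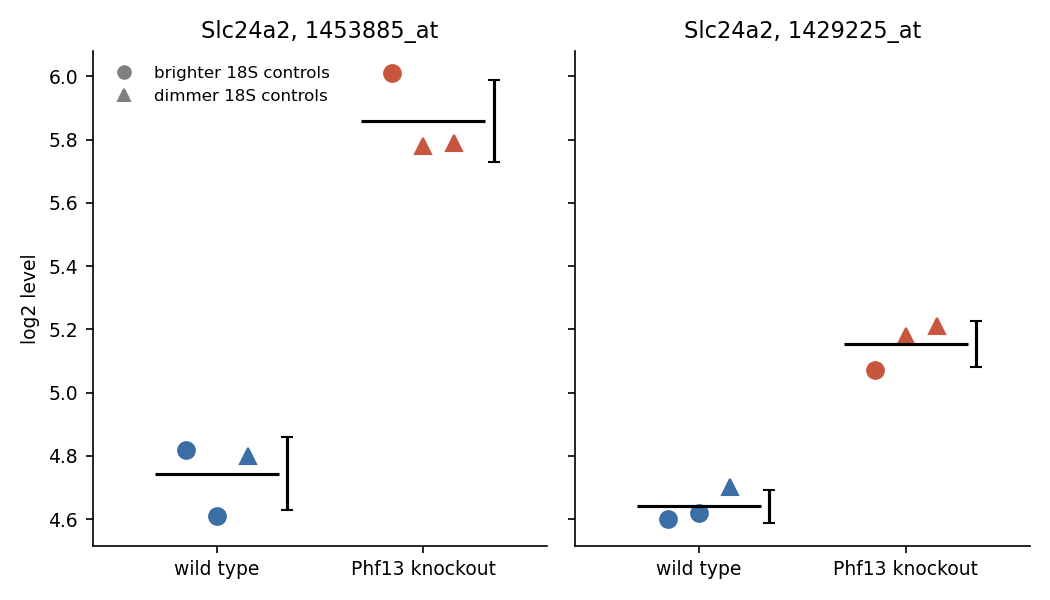
Log2 level (y axis) of the 2 Slc24a2 probe sets on each array, by genotype; horizontal lines are group means, vertical bars are 1 SD of 3 arrays, and marker shape gives the set of arrays by 18S control signal. In both panels every knockout point lies above every wild-type point, by at least 0.96 on the left and 0.37 on the right.

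The controls for 18S ribosomal RNA split the arrays in 2. The brighter set was knockout 1 with wild type 1 and wild type 2, at 12.03 to 12.67, and the dimmer set was knockout 2 and knockout 3 with wild type 3, at 9.69 to 10.71. The 3' minus 5' control signal split the same way, for actin (0.75 to 0.89 against 0.56 to 0.59) and Gapdh (0 to 0.14 against -0.27 to -0.20). Consecutive numbers in the sample titles gave the title code runs used as a block below. These were wild type 1 alone, wild type 2 with knockout 1, and the dimmer set. Within the brighter set, Slc24a2 differed by 1.30 on probe set 1453885_at and by 0.46 on 1429225_at; within the dimmer it differed by 0.99 and 0.50. Since the groups did not overlap on either probe set, a higher knockout mean inside each set was fixed in advance and adds no support. Within each set the 18S mean was also lower in knockout, and its part in the result was not tested. Leaving out each array in turn gave differences from 1.04 to 1.16 for 1453885_at and from 0.49 to 0.56 for 1429225_at. Their sign was fixed in the same way.

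Markers of other cells were read beside Slc24a2, and 0 of them in any list passed limma's adjusted threshold, which 0.137% of all genes did at 1 probe set per gene. Of 12 Sertoli cell markers, 11 lay above 0, against 51.3% of all genes, with a median difference of 0.42, and the log2 of their summed level ran from 12.85 to 12.95 in wild type and from 13.24 to 13.53 in knockout. Of these 12, 7 were higher at an unadjusted limma p under 0.05, against 8.58% of all genes. All 4 measured Leydig cell markers lay above 0, with summed levels from 11.52 to 11.89 in wild type that overlapped the 11.73 to 12.28 of knockout. All 5 leukocyte markers lay above 0 as well, with a median of 0.35 that was -0.14 within the brighter 18S set and 0.35 within the dimmer; their summed levels, 8.21 to 8.39 and 8.16 to 8.90, overlapped. Of 5 myoid and smooth muscle markers, 4 lay above 0 (median 0.11), as did 3 of 4 endothelium markers (median 0.17). All 7 heart and skeletal muscle markers lay above 0 (median 0.10). At an unadjusted limma p under 0.05, 2 Leydig, 1 myoid and smooth muscle and 2 heart and skeletal muscle markers were higher as well. The medians of spermatogonial, spermatocyte, round spermatid and elongating spermatid markers were 0.06, 0.01, 0.03 and 0.01. Of the 5 spermatocyte markers, 2 were lower at that level, against 8.72% of all genes. No leukocyte, endothelium, spermatogonial or spermatid marker had such a p. Since Slc24a2 is known from neurons, 8 neuronal and glial markers were read too. For 5 of them the difference was above 0 (median 0.02), and their summed level ran from 7.74 to 7.79 in wild type and from 7.85 to 7.89 in knockout. The synaptic gene Snap25 and the neurofilament genes Nefl and Nefm lay below the lower quartile on every array. The others lay below it on no array, and Rbfox3, at a mean of 6.14, was above the median on every array. None of the 8 had an unadjusted limma p under 0.05. The part of these cells in the Slc24a2 result was not tested.

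The genes whose values followed those of Slc24a2 most closely were found by centring each probe set on its mean and taking the root mean square difference from 1453885_at over the 6 arrays. By that measure the nearest 5 named genes were Slc7a2, a cationic amino acid transporter (0.09), Sec11a, a subunit of the signal peptidase (0.15), Lpar1, a receptor for lysophosphatidic acid (0.17), Rsph3a, a radial spoke gene (0.18), and Arg2, the mitochondrial arginase (0.19). 1 predicted gene among them was passed over. A flat probe set would score 0.57, and the second probe set of Slc24a2 scored 0.33. No other exchanger came close: the nearest were a Slc8a1 probe set at 0.42 and Slc8b1 at 0.45. Slc7a2 read 3.73, 3.53 and 3.79 in wild type and 4.90, 4.94 and 4.75 in knockout. Sec11a read 10.33, 10.33 and 10.36 against 11.26, 11.16 and 11.24. In both, as in Slc24a2, the knockout arrays all lay above the wild-type arrays. Both were picked for likeness to Slc24a2, so this follows from the choice, and the likeness is given as a description. Over all probe sets, the groups did not overlap in either direction in 19.3%.

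None of the 12 probe sets of the 7 other exchangers passed limma's test at an adjusted p under 0.05, the smallest being 0.263. Over all 45037 probe sets, 0.0999% passed. At an unadjusted p under 0.05, 1 of the 12 was higher and 0 were lower, against 6.81% and 8.31% of all probe sets, or 15.1% in all, and an unmoderated linear model gave 0 at that level. Their median difference was 0.07, with 8 above 0 and 4 below, beside a median of 0.00 over all probe sets. In 1 of the 12 the groups did not overlap, against 19.3% over the array.

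**Figure D2:**
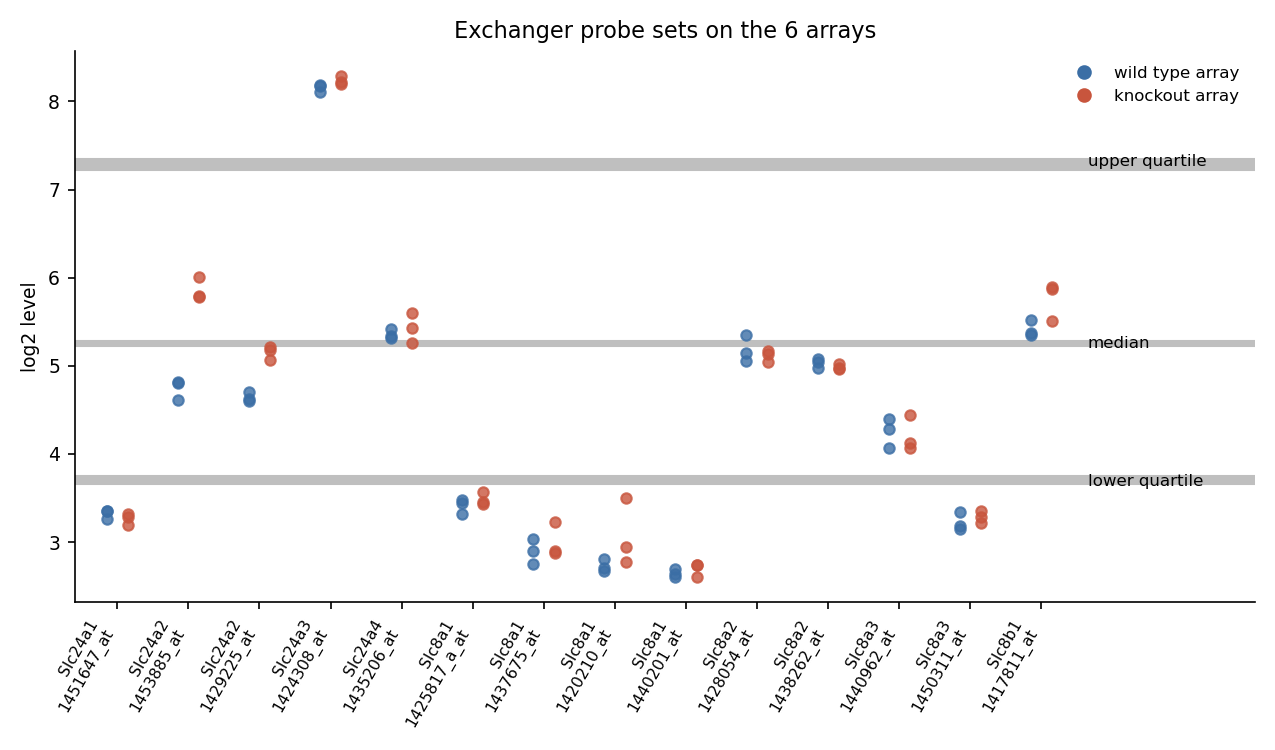
Log2 level (y axis) of the 14 exchanger probe sets (x axis) on the 3 wild-type and 3 knockout arrays, with grey bands for the range of the array quartiles. Slc24a3 lies above the upper quartile on all arrays and the 4 Slc8a1 probe sets below the lower quartile. The genotype means differ by 1.12 and 0.51 for Slc24a2, which was chosen by this difference. For the others they differ by at most 0.35 in size.

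Brightness differed widely between the probe sets. Probes differ in how well they bind, so these values do not rank the paralogs and are placed only against the quartiles of each array. The lower quartile ran from 3.66 to 3.75, the median from 5.22 to 5.28 and the upper quartile from 7.22 to 7.35. As a guide to how little a dim value says, 18 measured genes typical of other tissues, such as pituitary hormones and milk proteins, had means from 2.46 to 8.28 with a median of 4.49.

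Within the potassium-dependent family, Slc24a3 was the one exchanger above the upper quartile on all 6 arrays. It read 8.18, 8.19 and 8.11 in wild type and 8.20, 8.22 and 8.29 in knockout. The knockout arrays all lay above the wild-type arrays, but by as little as 0.01, and the difference of 0.08 (SE 0.08) did not pass (limma adjusted p = 0.699). Its 95% interval from the limma fit ran from -0.11 to 0.27, which leaves out a difference as large as that of either Slc24a2 probe set.

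Slc24a4 read 5.32, 5.34 and 5.42 in wild type and 5.60, 5.43 and 5.26 in knockout. The knockout arrays lay on both sides of the wild-type ones, and the difference of 0.07 (SE 0.11) did not pass (limma adjusted p = 0.793; 95% interval -0.17 to 0.31). Within the brighter 18S set it was 0.27 and within the dimmer -0.08, and without knockout 1 it was -0.015. Slc24a1, the rod photoreceptor exchanger, was dim, below the lower quartile on all arrays. It read 3.35, 3.35 and 3.26 in wild type and 3.20, 3.29 and 3.32 in knockout, a difference of -0.05 (SE 0.09, limma adjusted p = 0.819).

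Slc8b1, the mitochondrial exchanger, came nearest to a difference among the other members. It read 5.35, 5.52 and 5.37 in wild type and 5.51, 5.87 and 5.90 in knockout. Knockout 2 and knockout 3 lay above all wild-type arrays, while knockout 1 lay just below wild type 2. The means were 5.41 ± 0.09 and 5.76 ± 0.22 (SD, n = 3 each), and the difference of 0.35 (SE 0.12; 95% interval 0.07 to 0.63) had a limma unadjusted p = 0.0214 and adjusted p = 0.263. Within the brighter 18S set, which holds knockout 1, it was 0.08, and within the dimmer it was 0.52. Several marker lists were split in the same order, with medians in these sets of -0.14 and 0.35 for leukocytes and -0.045 and 0.365 for smooth muscle. Those of Leydig cells were 0.16 and 0.50, of endothelium 0.05 and 0.255 and of Sertoli cells 0.30 and 0.40. Neuronal and glial markers (0.105 and 0.03) and spermatocyte markers (0.04 and -0.07) were split the other way. The part of these cells in the Slc8b1 values was not tested. With array weights, which give arrays that stand apart less influence, the Slc8b1 difference was 0.40 and passed (limma adjusted p = 0.0424). Over 15 alternatives the adjusted p ran from that value to 0.562.

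Slc8a1, the exchanger that removes calcium from heart muscle cells after each beat, had 4 probe sets, all below the lower quartile on all 6 arrays. The largest difference was on 1420210_at, which read 2.81, 2.67 and 2.71 in wild type and 3.50, 2.78 and 2.94 in knockout. Knockout 1 alone stood high, and without it the difference of 0.34 (SE 0.17, limma adjusted p = 0.387) was 0.13. The other Slc8a1 probe sets differed by 0.07, 0.11 and 0.04 and their groups overlapped. Knockout 1 was not high on those, at 3.43, 2.90 and 2.60 on 1425817_a_at, 1437675_at and 1440201_at.

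The neuronal exchangers Slc8a2 and Slc8a3 had 2 probe sets each, none with a difference larger in size than 0.08. Slc8a2 on 1428054_at read 5.35, 5.15 and 5.06 in wild type and 5.17, 5.13 and 5.04 in knockout, a difference of -0.07 (SE 0.10, limma adjusted p = 0.775). Its other probe set differed by -0.05 (SE 0.08). Slc8a3 on 1440962_at read 4.28, 4.07 and 4.40 against 4.44, 4.07 and 4.13, a difference of -0.04 that was 0.27 within the brighter 18S set and -0.30 within the dimmer. On 1450311_at it read 3.34, 3.18 and 3.15 against 3.28, 3.22 and 3.35. The 95% intervals of these 4 differences lay between -0.33 and 0.27.

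**Figure D3:**
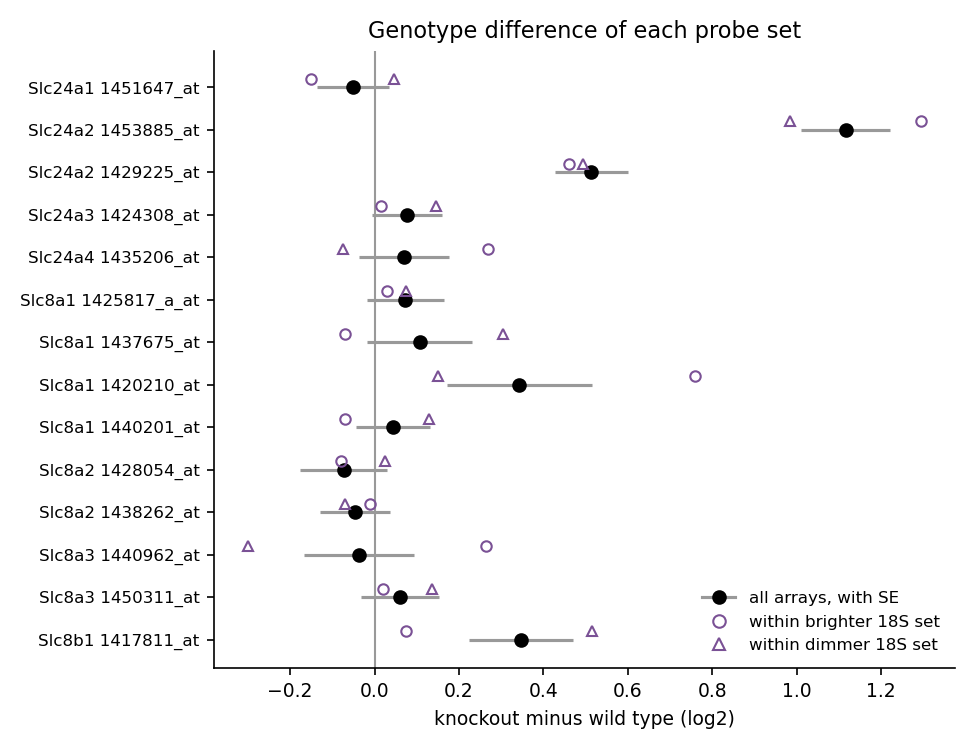
Knockout minus wild type on the log2 scale (x axis) for each exchanger probe set (y axis); filled points with bars are the difference over all 6 arrays and its standard error, open symbols the difference within each 18S set. The Slc24a2 differences of 1.12 and 0.51 stand to the right of all others, and The open symbols lie furthest apart for 1420210_at of Slc8a1 (0.76 and 0.15), 1440962_at of Slc8a3 (0.27 and -0.30) and Slc8b1 (0.08 and 0.52).

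The exchangers work beside pumps and channels that set the sodium and calcium gradients. Of 88 such genes listed in 8 groups, 74 had a probe set with that single symbol. With 1 probe set per gene, 0 of the 74 passed limma's adjusted threshold, against 0.137% of all 18193 genes, and an unmoderated model also gave 0. Without adjustment, 10 had a limma p under 0.05 and a higher level and 8 a lower one, or 24.3%, against 8.58% and 8.72% of all genes, or 17.3% in all. The unmoderated model gave 16. The median over the 74 genes was 0.00 and 37 lay above 0, as did 51.3% of all genes. The difference largest in size among them was the -0.61 of Ryr1.

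Calcium release and store entry held the gene nearest to the threshold. Ryr1, a ryanodine receptor that releases calcium from internal stores, averaged 5.29 ± 0.02 on the wild-type arrays and 4.68 ± 0.06 on the knockout arrays (SD, n = 3 each), a difference of -0.61 (SE 0.08, limma adjusted p = 0.0501). It passed with quantile normalization, with array weights, without knockout 1 and without wild type 3. Its other, dimmer probe set differed by 0.03. Ryr3 differed by -0.35 and the store-operated channel gene Orai1 by -0.25; the other probe sets of Ryr3 differed by 0.01 and 0.07 and that of Orai1 by -0.03. The median of these 10 genes was -0.14, and -0.215 without wild type 2. Of the 10, 7 lay below 0 and 3 were lower at an unadjusted limma p under 0.05, against 8.72% of all genes.

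The pumps that share the task of calcium removal did not pass. Of the 4 plasma membrane calcium pumps, 2 lay above and 2 below 0, with Atp2b1 at 0.26, Atp2b3 at -0.19 and Atp2b4 at -0.31. The other probe sets of Atp2b1 differed by -0.05 and 0.12, and that of Atp2b3 by 0.33, the opposite sign. Among 7 genes of the pumps of the endoplasmic reticulum and Golgi and their small regulators, the median was -0.02. Sarcolipin (Sln) differed by 0.55, phospholamban (Pln) by 0.35 and Atp2c2 by -0.33. The other probe set of Sln differed by 0.14, and those of Pln by 0.10 and 0.26. Among 9 mitochondrial genes, the partners of Slc8b1 in calcium handling, the median was 0.00. There Letm1 differed by -0.42, Vdac1 by 0.40 and Mcur1 by 0.15. The other probe sets of Letm1 differed by only -0.10, -0.07 and -0.02, whereas 3 of the 4 others of Vdac1 lay at 0.36 or 0.40 and the dimmest at -0.08.

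Among genes that make the sodium gradient, 12 sodium pump subunits and FXYD regulators had a median of 0.20. It was 0.13 without knockout 1, 0.14 with array weights and 0.12 among probe sets above the median level. Of the 12, 7 lay above 0, against 51.3% of all genes, and 4 were higher at an unadjusted limma p under 0.05, against 8.58%. Fxyd6 differed by 0.53, the pump subunit Atp1b2 by 0.31 and Fxyd3 by 0.34. The other, dimmer probe set of Atp1b2 differed by 0.13. Fxyd6 passed without knockout 1 (limma adjusted p = 0.0450) and with array weights (0.0251). It differed by 0.13 within the brighter 18S set and 0.67 within the dimmer. The leukocyte, smooth muscle, endothelium, Leydig and Sertoli marker medians were split in that order, and the part of these cells was not tested. Of 9 sodium-proton exchangers, Slc9a8 differed by -0.40, Slc9a5 by -0.37 and Slc9a2 by 0.22. Their median was 0.03, -0.04 with title code runs as a block and -0.27 among probe sets above the median level. The other probe sets of Slc9a8 differed by -0.19, -0.48 and 0.06, and that of Slc9a5 by -0.10. Of 14 calcium entry channels, the voltage-gated channel gene Cacna1h differed by -0.45, the sperm channel gene Catsper2 by -0.22 and Cacna1f by 0.29, with a median of -0.05. The other probe set of Cacna1h differed by only -0.05, and that of Catsper2 by -0.27. Of 9 calcium-binding genes, Sri, which encodes sorcin, differed by 0.50, Casq2 by 0.34 and Calb2 by 0.12. Other probe sets of Sri differed by 0.33 and -0.16. The median of the group was 0.07, but 0.0133 without knockout 1, 0.105 without knockout 2 and 0.12 among probe sets above the median level. The sodium pump median was 0.10 in the brighter 18S set and 0.15 in the dimmer; that of calcium release was -0.11 and -0.16.

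**Figure D4:**
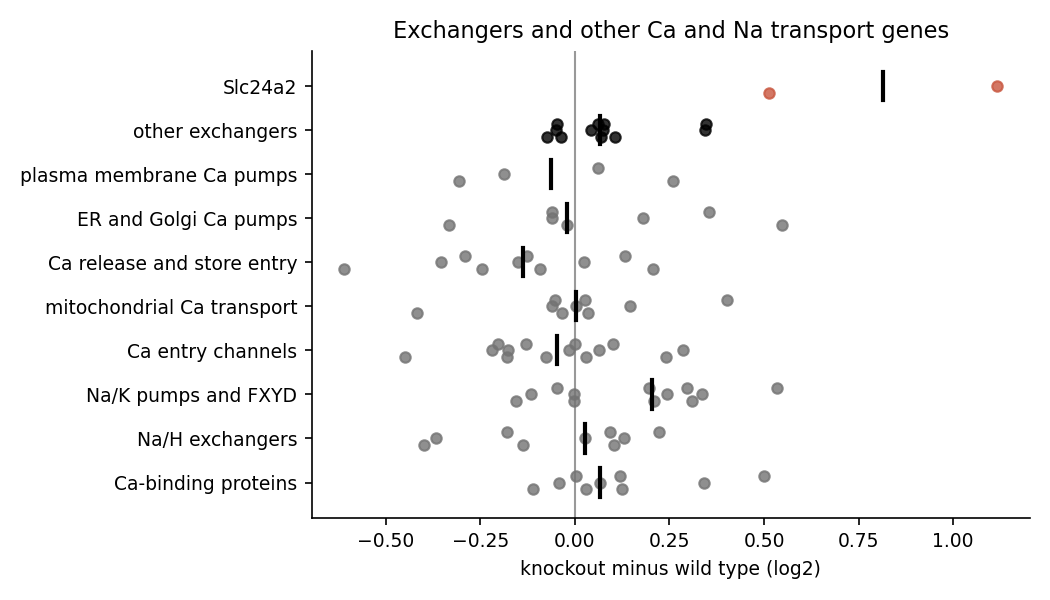
Knockout minus wild type on the log2 scale (x axis) for the Slc24a2 probe sets, the 12 probe sets of the other exchangers, and the genes of 8 transport groups at 1 probe set per gene; short vertical lines are medians. Points of the groups lie between -0.61 and 0.55, below the 1.12 of Slc24a2 probe set 1453885_at.

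Slc24a2 and Phf13 share chromosome 4, so the genes around Slc24a2 were read as well. In the RefSeq gene order of GRCm38.p6, 636 measured genes lie between the 2. Of the 10 nearest measured genes on each side of Slc24a2, 0 of 20 passed limma's adjusted threshold, against 0.137% of all genes. At an unadjusted limma p under 0.05, 2 were higher and 0 lower, against 8.58% and 8.72% of all genes, or 17.3% in all. The unmoderated model gave 0 adjusted and 1 unadjusted. In 3 of the 20 the knockout arrays all lay above the wild-type arrays, and in 0 all below. Over all probe sets the groups did not overlap in either direction in 19.3%. The median of the 20 was 0.04, and 11 lay above 0. Acer2, a ceramidase gene and the nearest on one side, read 5.25, 5.44 and 5.40 in wild type and 5.45, 5.70 and 5.75 in knockout, a difference of 0.27 (limma adjusted p = 0.303). Mllt3, a chromatin reader gene and the nearest on the other side, differed by -0.09. The largest difference of the 20 was 0.40, of Sh3gl2 (limma adjusted p = 0.208), which lies 9 genes away; it was chosen after its values were seen. The median was -0.00333 without knockout 1 and -0.02 without wild type 2.

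**Figure D5:**
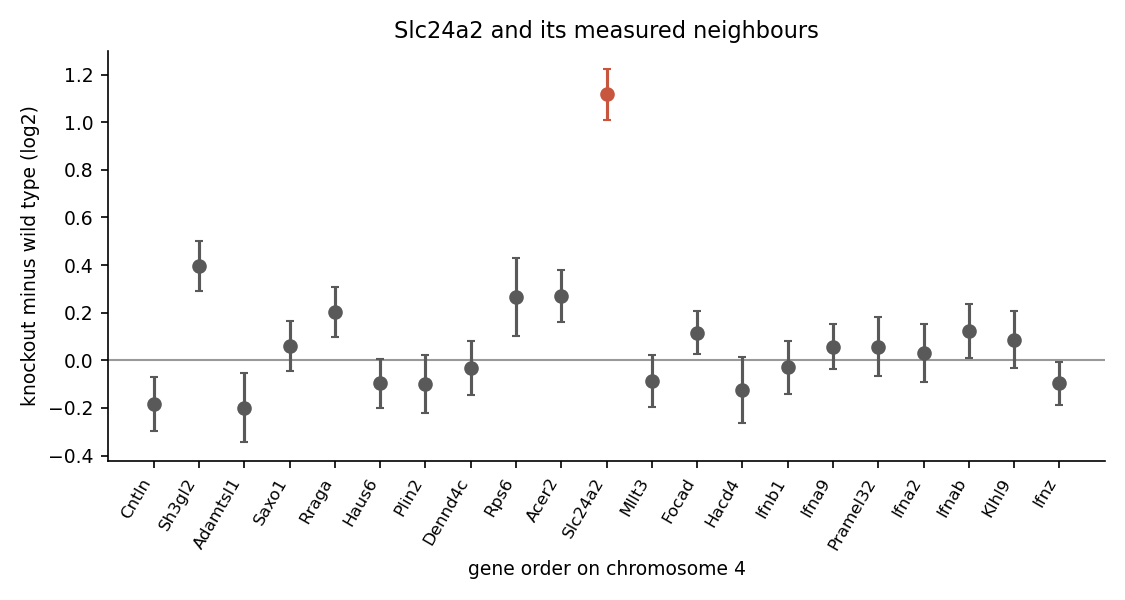
Knockout minus wild type on the log2 scale (y axis, with standard errors) for Slc24a2 and the 10 nearest measured genes on each side, in gene order (x axis, not to distance). Slc24a2 stands at 1.12, and its neighbours lie between -0.20 and 0.40.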

How the data were processed

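RNA of whole testis was hybridised to 6 arrays, 3 per genotype. Per the submitters' processing notes, the authors made the deposited log2 values in Affymetrix Expression Console 1.4.1. The scale was inferred from the range of the values. The sources used here do not give the summarization, normalization or annotation build. Of 45101 probe sets, 64 controls were left out and 45037 tested unfiltered. The platform annotation gave 1 symbol to 34945 probe sets, several to 932 and none to 9160. Of those with 1, 34741 were found in the RefSeq table by gene identifier, with 0 changed symbols.

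Genotype was fitted with lmFit and eBayes (limma 3.58.1, R 4.3.3), two-sided, with Benjamini-Hochberg adjustment over all probe sets and a threshold of 0.05; the procedure was tested on simulated data. Outside the exchangers the probe set with the highest mean stood for a gene. Named were all exchangers, at most 3 genes per transport group with the smallest p, the 5 genes most like Slc24a2, and its nearest neighbours. The members and lists were chosen with earlier results of these data known. No 2 arrays were the same (root mean square difference of at least 0.17). The number of arrays limits the precision. Alternatives were 3 kinds of block, a level filter, 2 rescalings, 2 other moderations, array weights, averaging over a gene's probe sets and each array left out.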

Additional observations from a re-analysis of the deposited data

How the results depend on the processing

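The Slc24a2 differences ran over the alternatives from 1.04 to 1.16 for 1453885_at and from 0.48 to 0.56 for 1429225_at. The mean of both probe sets gave 0.81. Slc24a2 was chosen by this difference and its groups did not overlap, so leaving out an array could not turn the sign. Other moderation and the replicate block left the difference itself unchanged. These ranges are therefore a description and no support. With array weights 1654 probe sets were called higher and 1532 lower, as were 1 probe set of the other exchangers (Slc8b1), 14 of the transport genes and 1 neighbour of Slc24a2 (Sh3gl2). Quantile normalization called 1 transport gene, Ryr1. Called higher and lower were 66 and 44 with an intensity trend and robust moderation, 12 and 4 with title code runs as a block, and 0 and 1 with the unmoderated statistic; above the median level 42 were lower. Leaving out each array gave 8 to 178 called higher and 4 to 998 lower, the largest numbers without wild type 3 (178 and 998) and without knockout 1 (140 and 26), 0 to 2 transport genes, and a neighbour median of -0.02 to 0.0492. Signs turned for differences near 0: left-out arrays gave -0.015 to 0.155 for Slc24a4, -0.00667 to 0.178 for Slc8a1 on 1437675_at, -0.137 to 0.00833 for Slc8a2 on 1428054_at (0.0229 with title code runs as a block) and -0.15 to 0.0383 for Slc8a3 on 1440962_at. Among probe sets above the median level the group medians were 0.26 for plasma membrane calcium pumps and 0.08 for those of the endoplasmic reticulum and Golgi, where fewer genes are left. The cause of the other changes was not tested.

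With the replicate block, 22 probe sets were called higher and 6 lower, and none of the 12 probe sets of the other exchangers was called. Neither the labels nor the data settle whether the numbers pair the arrays. Deviations of same-numbered arrays correlated at 0.26, 0.07 and 0.12. Wild type 1 and wild type 2 correlated best with the knockout of the same number, whereas wild type 3 correlated best with knockout 2 (0.13).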
